A study of Arabidopsis thaliana with 24 samples.

Results

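The genotype-by-salt interaction asks, for each gene, whether NaCl changed the transcript level by a different factor in the exa1-1 mutant than in the wild type. It was computed from the 12 salt-set libraries of 24 in the series, identified by their labels. The value is the exa1 difference between NaCl and control minus the wild-type difference between NaCl and control on a log2 scale. The 4 groups of 3 libraries each were wild-type Col-0 and exa1-1 Arabidopsis seedlings, 9 days old, on MS medium with sucrose, kept for 60 min without added salt (MS groups) or with 200 mM NaCl (NaCl groups). The other 12 libraries formed a heat set, of which the 6 at 23 °C served as separate unstressed seedlings of the same genotypes. Whole seedlings were sequenced from total RNA, so fewer cells of a type and less RNA per cell cannot be told apart. The mutant was represented by the exa1-1 allele alone, with no second allele or complemented line among the groups compared.

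EXA1 encodes a GYF-domain protein, a class of adaptor that binds proline-rich motifs and that in plants has been linked to the control of translation and of immune receptor levels. Sudden salinity lowers the water potential around the root and raises abscisic acid (ABA), whose receptors then inhibit clade A PP2C phosphatases, which frees SnRK2 kinases to activate bZIP factors at ABA response elements. A parallel branch without ABA acts through DREB factors, and both branches raise genes for protective proteins and compatible solutes while growth and photosynthesis genes are adjusted. A difference of responses on a log scale can come from the unstressed level, from the level in salt, or from both. For this reason many genes below are given with their levels in the 4 groups or with the genotype differences on MS and in NaCl. Others are given with their class or their interaction alone.

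EXA1 itself (AT5G42950) was low in every mutant library. In reads scaled by TMM to a common library size (CPM), EXA1 was at 89.5, 88.4 and 89.8 in the wild-type MS libraries and 11.5, 14.6 and 14.6 in the exa1 MS libraries. With NaCl, EXA1 was at 124, 124 and 120.3 CPM in the wild type and 11.3, 13.5 and 13 in exa1. The genotypes did not overlap in either condition, and the labels were borne out by the targeted gene. The wild-type EXA1 level rose with salt by a log2 of 0.46 and the remaining exa1 signal had -0.11, which gave EXA1 an interaction of -0.57 ± 0.09 (SE; adjusted p = 1.09e-07) in the quasi-likelihood test of edgeR, adjusted by Benjamini-Hochberg, the test behind all adjusted p-values below. Among all genes, the libraries of the genotypes were non-overlapping for 41.4% on MS and 43.1% with NaCl, which is the background for each such remark.

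The salt-set libraries held 17600922 to 21557382 assigned reads, and 21759 genes passed the filter on low counts. Replicates differed little: the biological coefficient of variation was 3.09% in the salt set against 9.64% in the heat set, so small log2 differences could pass the test. Of the total variance, the first principal component took 82.9% and the second 6.16%. Of 22 root markers listed, 21 passed the filter on low counts, as did all 15 leaf markers, and each of these had reads in every library. The summed level of 21 root markers was 496 to 502 CPM in wild type on MS, 547 to 553 in exa1 on MS, 396 to 411 in wild type with NaCl and 358 to 368 in exa1 with NaCl. The summed level of 15 leaf markers was 5930 to 6117, 4694 to 4737, 9391 to 9599 and 5792 to 6000 CPM in the same order. The root sum was thus higher in exa1 on MS and lower with NaCl, and the leaf sum was lower in exa1 in both conditions. Single genes were less uniform. Of the 15 leaf markers, 5 were lower and 2 higher in exa1 on MS (median log2 -0.02), and 6 and 3 with NaCl (-0.35). Of the 21 root markers, 7 were higher and 1 lower on MS, and 2 and 1 with NaCl. The leaf list shares RBCS1A, LHCB3 and CAB3 with the photosynthesis lists below. The part of the tissue markers in the interactions below was not tested.

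The response to NaCl differed between genotypes for 4606 of 21759 genes (21.2%), with a higher interaction, meaning a response shifted upwards in exa1, for 2514 (11.6%) and a lower one for 2092 (9.61%). Most of these differences were small, and 442 genes reached 2-fold. The response itself was broad in both genotypes, with 16199 genes (74.4%) changed in the wild type and 16318 (75%) in exa1. Genotypes differed for 6385 genes on MS (29.3%) and for 7794 with NaCl (35.8%). In the whole table the median log2 interaction was 0.01, the median genotype difference 0.00 on MS and 0.02 with NaCl.

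Each called gene was placed by where the genotypes differed. On MS only, 1094 genes differed (23.8% of the 4606), of which 685 had a higher interaction with exa1 the lower genotype before salt and 409 a lower one with exa1 the higher. In NaCl only, 1872 genes differed (40.6%), split evenly between 921 higher and 951 lower interactions. Both conditions showed a difference of the same sign for 268 genes with the larger one on MS and for 518 with the larger one in NaCl. A further 679 genes (14.7%) differed in both conditions with opposite signs, 459 of them lower in exa1 on MS and higher in exa1 with NaCl. The remaining 175 differed in neither condition by its own test. Membership of the MS-only and NaCl-only classes depends on where a test passed, so sizes were also compared directly. The genotype difference was larger on MS for 1836 of the 4606 genes (39.9%) and larger in NaCl for 2770 (60.1%), against 44.6% larger on MS among all genes tested. Among higher interactions the share larger on MS was 49.4%, and among lower ones it was 28.4%. On the plot of the difference in NaCl against that on MS, the classes lie along the 2 axes and in the quadrants between them.

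**Figure D1:**
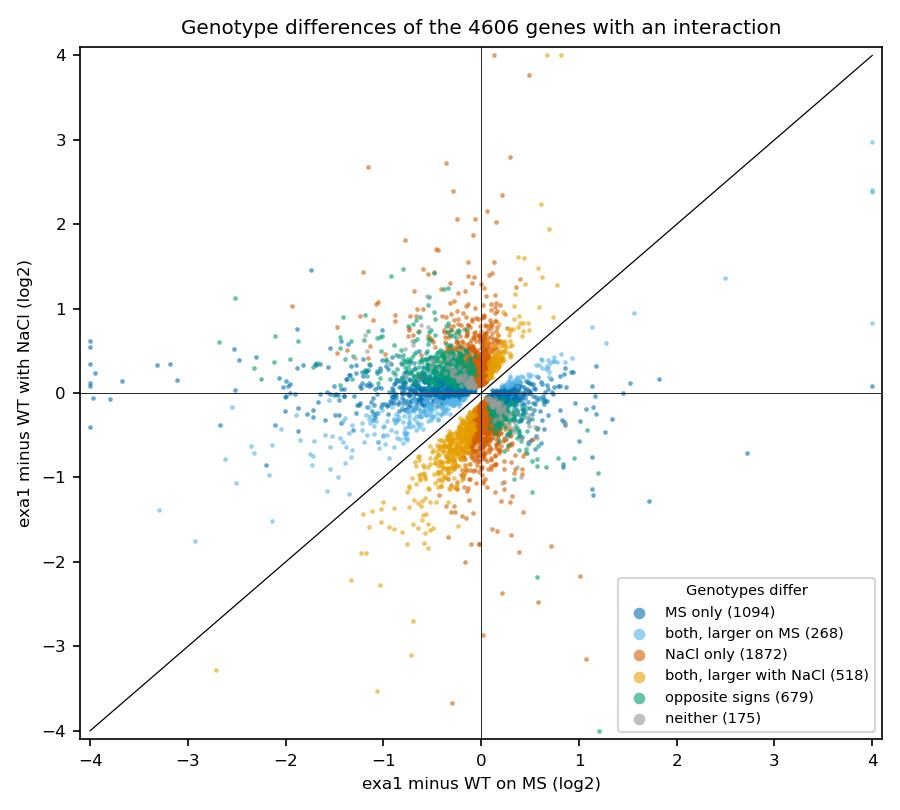
The exa1-minus-wild-type log2 difference on MS (horizontal axis) is plotted against that with NaCl (vertical axis) for the 4606 genes with a called interaction, 1 point per gene, coloured by class and drawn at 4 where beyond it. The 1094 MS-only genes spread along the horizontal axis, the 1872 NaCl-only genes along the vertical axis, and the 679 genes of opposite signs fill the upper left and lower right quadrants.

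Read as responses, the commonest pattern was a rise in both genotypes that was larger in exa1, seen for 1250 of the 4606 genes, against 655 that rose in both but less in exa1. Among all genes tested, called or not, these patterns held 3978 and 2930 genes. Falls in both genotypes were larger in exa1 for 636 genes and smaller for 585. The response passed the test in the wild type alone for 579 genes and in exa1 alone for 626, and 139 genes rose in the wild type and fell in exa1, with 122 the other way round. A larger rise did not always mean a higher level in salt. Of the 1250 genes that rose more in exa1, 377 were in the MS-only class. Another 132 were lower in exa1 in both conditions, and more so on MS. The 283 in the class of opposite signs were higher in exa1 with NaCl. So were 370 of the NaCl-only class and 46 that differed in both conditions and more in NaCl. The interaction is a ratio of ratios, and in plain CPM the difference of differences had the same sign for 97.1% of the called genes. The share was lowest, at 73.5%, for genes that differed in both conditions and more on MS.

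Of the genes that make and sense ABA, NCED3 (AT3G14440; chr3:4831286-4834015 in RefSeq TAIR10.1), the dioxygenase that catalyses the limiting cleavage step of ABA synthesis under drought and salt, had one of the larger interactions. On MS, NCED3 stood at 2.52, 2.7 and 3.27 CPM in the wild-type libraries and 0.877, 0.379 and 0.433 in exa1. With NCED3 induced by NaCl, the wild type held 71.9, 67.6 and 70.1 CPM and exa1 84.5, 85.5 and 86.5. All exa1 libraries lay below the wild type on MS and slightly above it in salt, so the larger exa1 response came mostly with its lower start. The log2 difference was -2.32 ± 0.23 on MS and 0.29 ± 0.05 with NaCl, and the interaction was 2.62 ± 0.24 (SE; adjusted p = 1.24e-19).

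Among 9 clade A PP2C phosphatases, the negative regulators of ABA signalling, 2 had a higher interaction and none a lower one (4 higher without exa1 MS replicate 3). The share called with all 12 libraries, 22.2%, was close to the 21.2% of all genes. HAI1 (AT5G59220; chr5:23894404-23896939) was at 3.02, 4.43 and 4.45 CPM in wild type and 1.86, 1.14 and 1.06 in exa1 on MS. Salt brought HAI1 to 302, 305 and 295 CPM in wild type and 287, 286 and 277 in exa1. The genotypes were well apart before salt and close together, though still not overlapping, in salt. HAI1 had an interaction of 1.47 ± 0.17 (SE; adjusted p = 2.19e-13) on the log2 scale, while its difference of differences in CPM was -15.1, of the other sign, with exa1 still slightly lower at the high level. ABI1, the founding member of the family, had log2 differences of -0.51 ± 0.03 on MS and 0.13 ± 0.02 with NaCl and an interaction of 0.64 ± 0.04.

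CYP707A1, an ABA 8'-hydroxylase that starts ABA breakdown, was lower in exa1 on MS (-0.39 ± 0.09) and higher with NaCl (0.43 ± 0.06), with an interaction of 0.82 ± 0.11 (SE; adjusted p = 2.49e-10). Of 6 tested genes of ABA synthesis only NCED3 was called (16.7%, against 21.2% of all genes). Of 9 ABA receptor genes, 2 had a higher and 2 a lower interaction, but the calls of PYL4 and PYL6 were lost without 1 library in 6 and 3 cases (adjusted p up to 0.296 and 0.289). RCAR3, whose call held without each library in turn, fell more in exa1 (-0.85) than in the wild type (-0.42), from a slightly higher level. Among 15 kinases and bZIP factors of the pathway, 3 were called higher, namely SNRK2-8 (0.80 ± 0.16), SNRK2.7 (0.69 ± 0.17) and GBF3 (0.44 ± 0.09; the last not with all 24 libraries in 1 fit, adjusted p = 0.0512). The 1 lower call was that of ABF2 (-0.21 ± 0.07), a bZIP factor, and it was lost without 1 library in 4 cases (adjusted p up to 0.0912). The share called among these kinases and bZIP factors, 26.7%, was not far above the 21.2% of all genes.

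Downstream, 17 of 23 ABA and drought target genes had a higher interaction and none a lower one, against 11.6% and 9.61% of all genes. Their median log2 difference between genotypes was -0.42 on MS and 0.25 with NaCl, and the median interaction 0.63. On MS, 14 of the 23 were lower in exa1 and 2 higher, whereas with NaCl 18 were higher in exa1 and 1 lower. By class, 10 changed sign between conditions, 4 differed in NaCl only and 3 on MS only. LEA4-5 (AT5G06760; chr5:2089445-2090430), a late embryogenesis abundant protein that protects cells against dehydration, was barely detected on MS, at 1.23, 1.11 and 0.536 CPM in wild type and 0.723, 0.379 and 0.0962 in exa1. With NaCl, LEA4-5 reached 324, 322 and 301 CPM in wild type and 429, 423 and 432 in exa1. The MS libraries of the genotypes overlapped and those in NaCl did not, and the interaction was 1.75 ± 0.34 (SE; adjusted p = 3.07e-05).

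KIN1, a small cold- and ABA-responsive protein, was at 33.1, 35.9 and 39 CPM in wild type and 18.6, 19.4 and 19.5 in exa1 on MS. In salt KIN1 reached 403, 379 and 379.7 CPM in wild type and 432, 463 and 486 in exa1. Neither pair of groups overlapped and the order of the genotypes was reversed, with an interaction of 1.15 ± 0.07 (SE; adjusted p = 7.4e-19). LTI78 (RD29A; AT5G52310), the classical salt and cold marker, was at 169.6, 167 and 157 CPM in wild type and 155, 154 and 159 in exa1 on MS. With NaCl, LTI78 was at 3919, 3949 and 3910.0 CPM in wild type and 4732, 4863 and 4728 in exa1. Here the MS libraries overlapped and the interaction of 0.36 ± 0.03 (SE; adjusted p = 2.9e-24) went mainly with the salt level. RAB18, a dehydrin and ABA marker, had 0.49 ± 0.16 and lost its call without wild-type MS replicate 3 or exa1 MS replicate 1 (0.438 and 0.326, adjusted p = 0.0593 and 0.187). A single fit of all 24 libraries called 9 of the 23 targets higher, and the calls of LEA4-5 (1.73, adjusted p = 0.088) and LTI78 (0.34, adjusted p = 0.279) were lost.

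Promoters of these genes are shown because members moved together and because known elements of the ABA and DREB branches could be looked for. Printed are the 250 bases before the annotated start, 5′ to 3′ in the direction of transcription, from RefSeq TAIR10.1: LEA4-5 at chr5:2090431-2090680, minus strand, NAC019, a stress NAC factor described below, at chr1:19698483-19698732, minus strand, and LTI78 at chr5:21240467-21240716, plus strand. Capitals mark the ABA response element core ACGTG, the dehydration-responsive element core CCGAC and the W-box core TTGAC on either strand, and CACGTG holds the first of these on both strands.
LEA4-5: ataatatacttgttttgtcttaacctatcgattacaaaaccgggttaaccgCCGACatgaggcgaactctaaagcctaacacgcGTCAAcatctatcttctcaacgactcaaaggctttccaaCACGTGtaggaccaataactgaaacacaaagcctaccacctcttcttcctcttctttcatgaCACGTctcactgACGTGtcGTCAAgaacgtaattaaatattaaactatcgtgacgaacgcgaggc
NAC019: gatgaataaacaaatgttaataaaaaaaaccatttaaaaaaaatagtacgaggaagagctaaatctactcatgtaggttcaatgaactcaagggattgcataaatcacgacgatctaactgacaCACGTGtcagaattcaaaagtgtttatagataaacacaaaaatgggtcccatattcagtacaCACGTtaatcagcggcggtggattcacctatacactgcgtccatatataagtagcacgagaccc
LTI78: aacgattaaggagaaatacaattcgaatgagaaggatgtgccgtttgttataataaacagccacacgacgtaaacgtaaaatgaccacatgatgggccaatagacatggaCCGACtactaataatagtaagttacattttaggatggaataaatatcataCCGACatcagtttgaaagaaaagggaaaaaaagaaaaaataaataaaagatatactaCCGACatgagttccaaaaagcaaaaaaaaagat
The LEA4-5 window held 4 ABA response element cores, 1 dehydration-responsive core and 2 W-box cores, the NAC019 window 3 ABA response element cores, and the LTI78 window 3 dehydration-responsive cores and none of the others. At least 1 ACGTG was present in 12 of the 23 target promoters (52.2%) and in 23.9% of 21681 promoters of tested genes. CCGAC was present in 9 of 23 (39.1%) and in 12.8% of all. By class, ACGTG stood in 31.4% of promoters of MS-only genes with a higher interaction, in 38.8% of those larger on MS in both conditions, in 31.6% of those of opposite signs, in 26.7% of those in NaCl only and in 26.2% of those larger with NaCl in both. For lower interactions the shares in the same order were 22.7%, 32.2% (of 59 promoters), 21.0%, 23.0% and 31.0%, so no direction or condition held all the higher shares. A match is a description of the letters and not a bound site.

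**Figure D2:**
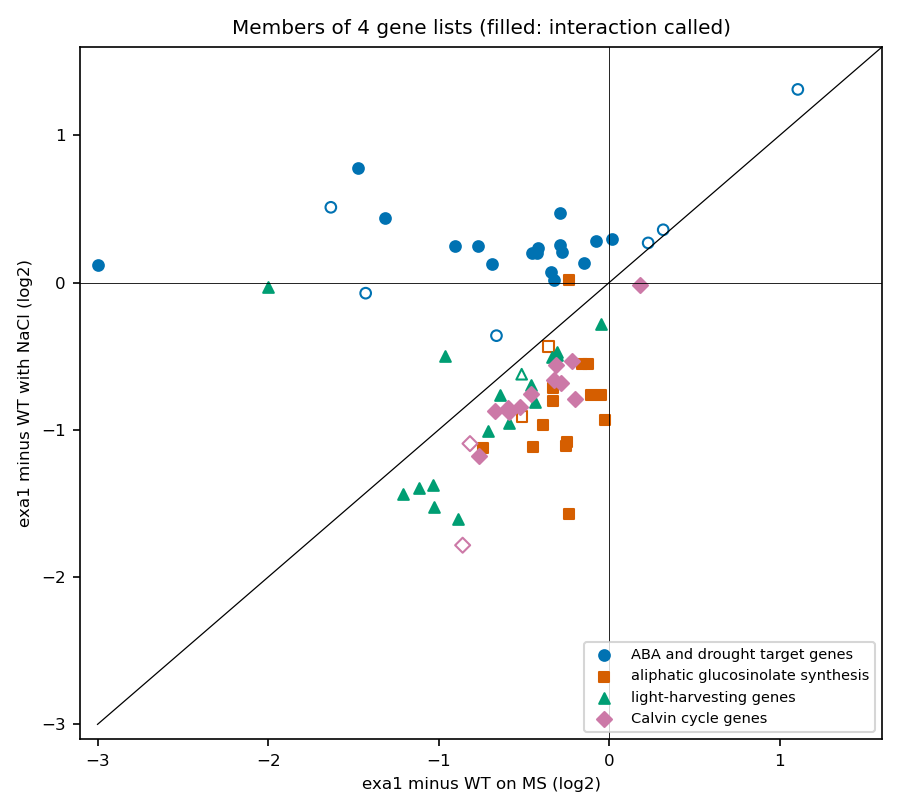
Log2 differences between exa1 and wild type are plotted on MS and with NaCl for each tested member of 4 lists, ABA and drought targets, aliphatic glucosinolate synthesis, light-harvesting and Calvin cycle genes, with filled symbols for members whose interaction was called and values beyond -3 drawn at -3. ABA and drought targets lie mostly below 0 on MS and above 0 with NaCl, while members of the other 3 lists mostly lie below 0 in both and lower with NaCl.

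Called stress transcription factors had higher interactions more often than lower ones in each of the lists examined, although most ERF, WRKY, CBF and DREB2 members were not called higher. Of 11 stress NAC factors 7 had a higher interaction and 1 a lower one, with median genotype differences of -0.27 on MS and -0.01 with NaCl. NAC019 (AT1G52890; chr1:19696923-19698482), a factor induced by drought, salt and jasmonate, was at 4.02, 3.77 and 5.36 CPM in wild type and 1.6, 1.09 and 1.44 in exa1 on MS. In salt NAC019 was at 159, 160.0 and 166 CPM in wild type and 163, 163 and 157 in exa1. Its genotypes were separate on MS and overlapped with NaCl, and its interaction was 1.65 ± 0.17 (SE; adjusted p = 4.35e-16). NAC3 (ANAC055), its close relative, had 0.82 ± 0.16, and the senescence factors NAP and NAC6 had 1.14 ± 0.16 and 0.86 ± 0.08. An ACGTG core stood in 7 of the 11 NAC promoters (63.6%).

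Of 15 early stress ERF factors 7 were called higher and none lower (medians -0.52 on MS and -0.39 with NaCl), including the repressor ERF11 (1.23 ± 0.27), Rap2.6L (0.87 ± 0.08) and RAP2.6 (0.66 ± 0.04). Among 18 stress WRKY factors, 6 were called higher and 2 lower. WRKY40, which acts in the wound and ABA response, was at 35.3, 34.2 and 37.4 CPM in wild type and 19.7, 20.5 and 18 in exa1 on MS. With NaCl it was at 185, 192 and 190.4 CPM in wild type and 181, 178 and 185 in exa1. The genotypes were apart on MS and overlapped in salt (interaction 0.81 ± 0.07, adjusted p = 1.45e-23), and WRKY75 was likewise lower in exa1 on MS (-0.95 ± 0.13; interaction 0.81 ± 0.15). Of 8 ZAT and AZF zinc fingers, repressors induced by osmotic stress, 5 were called higher and 1 lower, for example ZF2 (0.54 ± 0.11) and RHL41, also known as ZAT12 (0.52 ± 0.10). CBF1, a cold-induced DREB factor, had 1.99 ± 0.47 from a low level on MS, and CEJ1 had 0.68 ± 0.13. With all 24 libraries in 1 fit the higher calls numbered 5 NAC, 5 ERF, 2 WRKY and 2 zinc finger genes, and RHL41 (0.50, adjusted p = 0.284) was not among them.

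Auxin response genes were mostly lower in exa1 on MS, in 13 of 14 Aux/IAA and 16 of 19 GH3 and SAUR genes. Of the 14 Aux/IAA genes, whose products repress auxin response and are themselves induced by auxin, 7 had a higher interaction and 1 a lower one. Their median difference was -0.80 on MS, and with NaCl 10 were lower (median -0.38). Of the 8 called, 7 had the larger difference on MS or differed there alone, and 1 was of opposite signs. IAA19 (AT3G15540; chr3:5264001-5265695) was at 17.38, 16.9 and 17 CPM in wild type and 5.01, 4.5 and 4.23 in exa1 on MS. With NaCl IAA19 was at 19.7, 19.1 and 17.8 CPM in wild type and 17.8, 18.9 and 19.6 in exa1. The wild-type salt response was 0.14 and that of exa1 2.03, which brought exa1 up to overlap with the wild type (interaction 1.90 ± 0.14, adjusted p = 2e-26). IAA2 and IAA29 also had higher interactions, of 0.84 ± 0.05 and 1.17 ± 0.29, but remained lower in exa1 with NaCl (-0.31 ± 0.04 and -1.75 ± 0.20).

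GH3.3, an enzyme that conjugates free auxin to amino acids, was at 31, 24.2 and 26.1 CPM in wild type and 6.81, 6.68 and 6.44 in exa1 on MS. In salt GH3.3 rose to 59.1, 61.1 and 58.2 CPM in wild type and to 57.9, 69 and 61 in exa1. The genotypes did not overlap on MS and did so with NaCl, with an interaction of 2.104 ± 0.10 (SE; adjusted p = 4.01e-41). WES1 (GH3.5) and DFL1 (GH3.6) had 1.23 ± 0.10 and 0.92 ± 0.11. Among the 19 GH3 and SAUR genes as a whole, 3 were called higher and 4 lower, and the median difference was -1.15 on MS and -0.91 with NaCl. The 3 higher ones went with the MS level, and the 4 lower ones differed in NaCl only or more in NaCl. Within this list SAUR genes, small auxin-induced proteins of cell expansion, held the lower calls. SAUR63 had -2.47 ± 0.73, and its call was lost without wild-type NaCl replicate 2 (-1.93, adjusted p = 0.0717). The wider family did not lean to lower interactions. Of 63 SAUR-like proteins in the annotation, 9 were called higher and 7 lower (25.4% called, median interaction 0.03).

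Light and growth regulators had a higher interaction for 9 of 15 genes and a lower one for 1, with medians of -0.62 on MS and -0.09 with NaCl. PIF4, a bHLH factor that promotes elongation in shade and warmth, was at 19.2, 17.55 and 18.16 CPM in wild type and 7.79, 9.34 and 7.64 in exa1 on MS. In salt PIF4 was at 46.5, 50.4 and 46 CPM in wild type and 42, 46.2 and 39.4 in exa1. The genotypes were separate on MS and overlapped in salt (interaction 0.98 ± 0.11, adjusted p = 2.27e-14). COL5 and HFR1, a B-box protein and an atypical bHLH repressor of shade growth, had 0.96 ± 0.07 and 1.13 ± 0.30. STH, another B-box protein, differed in NaCl only (1.04 ± 0.17; on MS -0.16 ± 0.18). Of 18 cell wall loosening genes, 9 were called higher and 2 lower, including the expansin EXPA11 (0.74 ± 0.16) and the xyloglucan hydrolase XTH15 (0.87 ± 0.20), whose level fell with salt in both genotypes. The fit of all 24 libraries had as higher calls 3 Aux/IAA, 6 light and growth and 4 cell wall genes, and XTH15 (0.85, adjusted p = 0.556) lost its call.

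PR and effector genes of defence had mostly lower exa1 levels on MS, 7 of 11 by the test. Of these 11 genes 5 had a higher interaction and 1 a lower one, and their median genotype difference went from -1.39 on MS to 0.17 with NaCl. PR1, the marker of salicylic acid response, was at 45.7, 48.7 and 45.6 CPM in wild type and 17.5, 18.6 and 20 in exa1 on MS. With NaCl PR1 was at 42.6, 44.4 and 45.5 CPM in wild type and 49, 52.1 and 48 in exa1. The salt response was -0.08 in wild type and 1.41 in exa1, which took exa1 past the wild type with no overlap in either condition (interaction 1.49 ± 0.08, adjusted p = 6.22e-38). ELI3-2, an elicitor-activated alcohol dehydrogenase, was at 15, 14.5 and 16 CPM in wild type and 2.89, 3.65 and 2.93 in exa1 on MS. In salt ELI3-2 rose to 87.3, 89.8 and 93.8 CPM and 100, 104 and 100.01 CPM, respectively, and its interaction was 2.42 ± 0.11 (SE; adjusted p = 5.08e-47). The senescence-associated SAG13 had 2.39 ± 0.18.

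Salicylic acid genes were mixed, with 5 of 15 called higher and 2 lower. PBS3, which conjugates isochorismate to glutamate in salicylic acid synthesis, and the salicylic acid receptor NPR3 had interactions of 1.54 ± 0.22 and 0.68 ± 0.08. ACD6, an ankyrin membrane protein that promotes salicylic acid signalling, went the other way, with -1.04 ± 0.09 on MS and -2.27 ± 0.12 with NaCl (-1.23 ± 0.16, adjusted p = 4.29e-11). NLR immune receptor genes leaned to lower interactions, 7 of 18 against 3 higher. RPP8 had -0.48 ± 0.08, with the larger deficit in salt, and RPP5 had -0.39 ± 0.07, with the larger excess on MS, while RPS2 had 0.82 ± 0.11. The RPP genes belong to clusters of near-identical copies, so which copy carried the reads is uncertain. With all 24 libraries in 1 fit, 2 salicylic acid genes were called higher and 3 NLR genes lower, and ACD6 was not called (-1.26, adjusted p = 0.112).

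Jasmonate genes had a higher interaction for 8 of 18 and a lower one for 1. CYP94B3, which inactivates jasmonoyl-isoleucine by hydroxylation, was at 13.8, 14.1 and 16.3 CPM in wild type and 6.61, 5.31 and 7.45 in exa1 on MS. With NaCl CYP94B3 was at 224, 213 and 217 CPM in wild type and 415, 421 and 408 in exa1. The exa1 libraries were lowest on MS and highest in salt with no overlap in either, for an interaction of 2.11 ± 0.09 (SE; adjusted p = 8.34e-53). CYP94C1, the next enzyme of this inactivation, had 1.05 ± 0.10. Of 12 genes in a list of JAZ repressors that included MYC2, 3 were called higher and 1 lower. JAZ1 had 0.71 ± 0.04 and JAZ10 0.86 ± 0.09, and neither difference in salt passed the test (-0.02 ± 0.03 and -0.04 ± 0.05). Indole glucosinolate and camalexin genes had 10 of 15 called higher and none lower, among them the regulator MYB51 (0.63 ± 0.07) and the sulfotransferase SOT16 (0.47 ± 0.05). In the fit of all 24 libraries the higher calls were 2 jasmonate, 2 JAZ and 4 indole glucosinolate genes.

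PDF1 defensins, antimicrobial peptides induced by jasmonate and ethylene together, stood apart since exa1 was the higher genotype. Their list, which also held PR3 and HEL, had 3 of 8 called lower and 1 higher, with medians of 2.45 on MS and 2.03 with NaCl. The 1 higher call was HCHIB (PR3), which is not a defensin. PDF1.2 was at 0.549, 0.754 and 0.428 CPM in wild type and 9.7, 10.9 and 11.3 in exa1 on MS. With NaCl it was at 5.86, 3.97 and 4.9 CPM in wild type and 24.9, 26.1 and 27.3 in exa1. Both genotypes rose and the wild type by more, so the exa1 excess narrowed (interaction -1.76 ± 0.26, adjusted p = 7.33e-09). PDF1.2, PDF1.2c and PDF1.3 are near-identical and may share reads, so which copy changed is uncertain, and in the fit of all 24 libraries none of the 8 was called.

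Higher interactions of the MS-only class were ranked among genes with a symbol, at least 5 CPM in a group and no overlap on MS. The largest were those of FLP1, LTP4, GSTU3, MYB47 and DIN2, all of them lower in exa1 on MS. LTP4 is also counted above among the ABA and drought targets, and DIN2 belongs to the list of dark and sugar-starvation genes. GSTU3 (AT2G29470; chr2:12628422-12629640), a tau-class glutathione transferase, was at 5.03, 4.39 and 3.75 CPM in wild type and 0.361, 0.237 and 0.337 in exa1 on MS. With NaCl GSTU3 was at 14.8, 12.1 and 16.4 CPM in wild type and 12, 13.9 and 15.7 in exa1. All exa1 libraries were far below the wild type on MS and interleaved with it in salt (interaction 3.74 ± 0.30, adjusted p = 1.52e-23). DIN2, a dark-inducible beta-glucosidase, was at 5.85, 6.03 and 5.41 CPM in wild type and 1.39, 1.56 and 1.15 in exa1 on MS. In salt the values were 28.2, 27.9 and 30.7 CPM in wild type and 35.5, 32.5 and 30.4 in exa1, again overlapping (2.25 ± 0.19, adjusted p = 6.76e-23). FLP1, related to flowering promoting factors, and the lipid transfer gene LTP4 had no reads in the exa1 MS libraries. FLP1 was at least 10.9-fold higher in wild type than in exa1 on MS and rose at least 104.7-fold with salt in exa1, against a floor of 3 counts over the group. LTP4 was at least 4.50-fold higher in wild type and rose at least 254-fold in exa1. MYB47 had 2.29 ± 0.63, with 1, 2 and 2 reads in the exa1 MS libraries. Its NaCl libraries did not overlap, with exa1 lower by an estimate that did not pass the test (-0.38, adjusted p = 0.0522). In plain CPM the difference of differences was of the other sign for FLP1 (-1.05) and MYB47 (-1.47), and positive for LTP4, GSTU3 and DIN2. On log2(FPKM + 1) values neither LTP4 nor MYB47 was called, and LTP4 was not called in the fit of all 24 libraries.

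Lower MS-only interactions came from genes that exa1 held higher before salt. NLM1, an aquaporin of the NIP family, was at 4.02, 3.68 and 4.12 CPM in wild type and 11.5, 10.1 and 10.6 in exa1 on MS. With NaCl it was at 1.3, 1.98 and 2.29 CPM in wild type and 2.37, 1.58 and 1.65 in exa1. The exa1 excess on MS was gone in salt, with overlapping libraries (interaction -1.44 ± 0.28, adjusted p = 1.36e-05). CGA1, a GATA factor of chloroplast development, had -1.26 ± 0.20 and the fucosyltransferase FUT6 had -1.07 ± 0.28. GLIP2, a GDSL lipase, and PDC3, a pyruvate decarboxylase, were named by the same rule with -1.89 ± 0.71 and -1.07 ± 0.39. Their calls were lost without 1 library in 8 and 7 cases (adjusted p from 0.0539 to 0.123 and from 0.0601 to 0.157). FUT6, GLIP2 and PDC3 also had lower exa1 estimates in salt, which did not pass the test. Log2 differences on MS and with NaCl were 0.51 and -0.56 for FUT6, 1.13 and -0.76 for GLIP2, and 0.64 and -0.43 for PDC3. The NaCl libraries of FUT6 and GLIP2 did not overlap. NRT2:1, a high-affinity nitrate transporter, followed the pattern as well, with 0.81 ± 0.06 on MS, -0.20 ± 0.10 with NaCl and an interaction of -1.01 ± 0.11.

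**Figure D3:**
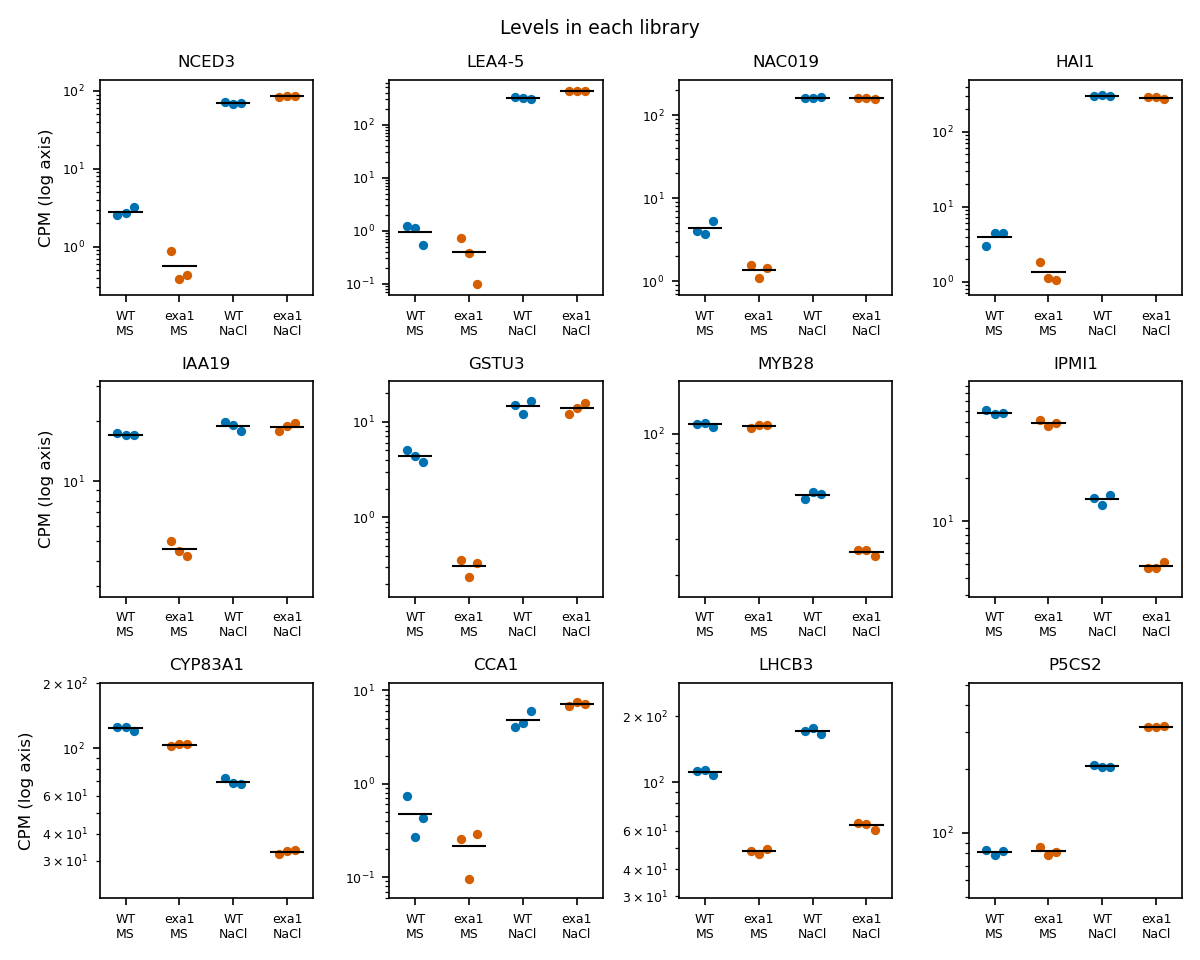
Level in each library (CPM, log axis) for 12 genes in the 4 groups, with wild type in blue, exa1 in orange, 1 point per library and bars at the group means. NCED3, NAC019, HAI1, IAA19 and GSTU3 are lower in exa1 on MS and close to wild type in salt. MYB28 and P5CS2 overlap on MS and are apart in salt, and IPMI1 is lower in exa1 on MS and by more in salt.

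Whether the unstressed part of these interactions recurred in other seedlings was examined at 23 °C, where 1598 of 21196 genes (7.54%) differed between genotypes, 903 (4.26%) lower and 695 (3.28%) higher in exa1. Of 648 tested MS-only genes that were lower in exa1 on MS, 123 (19.0%) were lower at 23 °C and 4 were higher, with a median of -0.22 against -0.43 on MS. Of 208 genes with a lower level in both salt-set conditions and the larger difference on MS, 92 (44.2%) were lower and 1 higher. Among 406 MS-only genes that were higher on MS, 37 (9.11%) were higher and 3 lower. In the NaCl-only class, 37 of 939 (3.94%) with a lower MS estimate were lower and 28 higher. Of 905 with a higher MS estimate, 57 (6.30%) were higher and 14 lower. Recurrence was not confined to genes with the larger difference on MS. Among genes that differed in both conditions and more in NaCl, 61 of 369 (16.5%) with exa1 lower on MS were lower and 1 higher. Of 149 in that class with exa1 higher on MS, 25 (16.8%) were higher and 1 lower. Genes of opposite signs with the lower exa1 level on MS had 74 of 454 (16.3%) lower and 7 higher. The 23 °C count was sensitive to single libraries, with 759 to 1052 calls in all without wild-type replicate 2 or 3 or any 1 of the exa1 replicates, and no share was taken as a test.

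NCED3 at 23 °C was at 0.898, 0.899 and 0.718 CPM in wild type and 0.279, 0.296 and 0.387 in exa1, without overlap, for a log2 difference of -1.37 ± 0.35 (adjusted p = 0.0181). HAI1 was at 3.84, 4.31 and 3.46 CPM in wild type and 1.95, 1.74 and 1.97 in exa1, also without overlap, with -1.03 ± 0.20 (adjusted p = 0.00355). IAA19 was at 2.91, 4.5 and 5.51 CPM in wild type and 2.27, 1.81 and 2.36 in exa1, with -1.004 ± 0.22 (adjusted p = 0.00817). In all 3 genes the exa1 libraries were below every wild-type library at 23 °C, as on MS. GSTU3 was at 0.575, 2.02 and 3.15 CPM in wild type and 0, 0.074 and 0.426 in exa1, with -3.48 ± 0.78 (adjusted p = 0.0142). NAC019, DIN2, SAG13 and WRKY40 were lower too, with log2 differences of -1.21, -1.48, -2.34 and -0.91. Other genes of the unstressed group did not pass at 23 °C, such as GH3.3 with -0.44 ± 0.21 (adjusted p = 0.233) and ABI1 with -0.12 ± 0.09 (adjusted p = 0.476). As a list, 5 of 22 ABA and drought targets were lower and 3 higher at 23 °C, with a median of -0.22, 7 of 13 Aux/IAA genes were lower and none higher, and 6 of 10 PR and effector genes were lower and none higher.

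**Figure D4:**
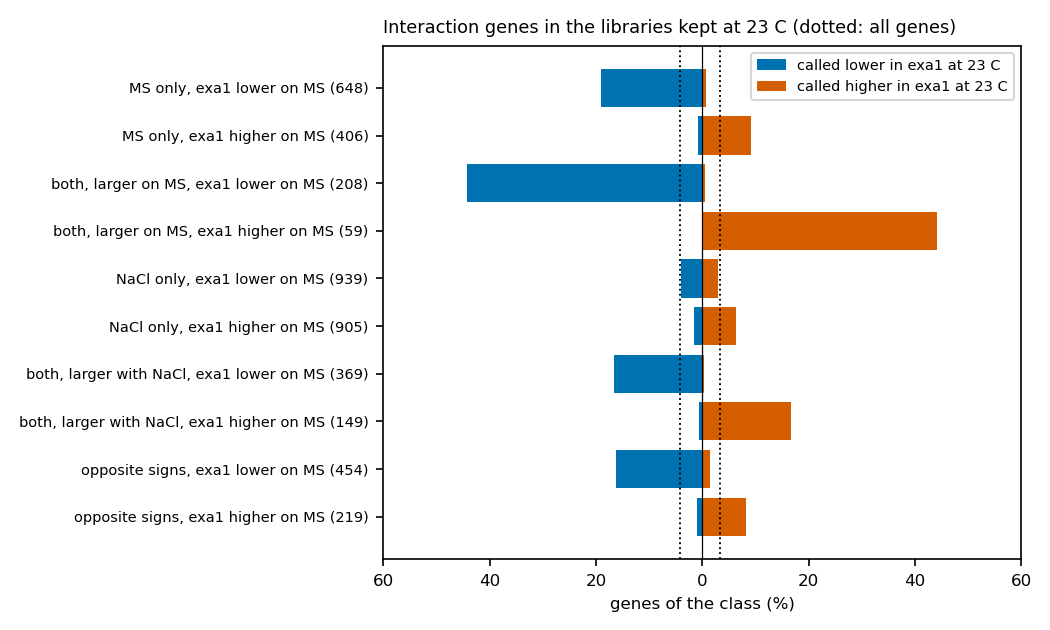
Percent of each interaction class called lower or higher in exa1 at 23 °C, split by the direction of the MS difference, with dotted lines at the percentages of all genes (4.26% lower and 3.28% higher). Genes that differed in both salt-set conditions and more on MS reach 44.2% lower and 44.1% higher, and those that differed more with NaCl 16.5% and 16.8%. MS-only genes reach 19.0% and 9.11%, and NaCl-only genes 3.94% and 6.30%.

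Interactions that went with the salt level were led by aliphatic glucosinolate synthesis, the pathway that builds methionine-derived defence compounds of the Brassicaceae. Of its 16 tested genes 13 had a lower interaction and 1 a higher one, with 10 in the class that differed in both conditions and more in NaCl and 3 in NaCl only. The median genotype difference was -0.25 on MS and -0.86 with NaCl. MYB28 (AT5G61420; chr5:24689069-24691187), the main activator of the pathway, was at 112, 113 and 108 CPM in wild type and 107, 109.9 and 110.2 in exa1 on MS. With NaCl MYB28 was at 47.7, 51.3 and 50.2 CPM in wild type and 26.4, 26.5 and 24.9 in exa1. The genotypes overlapped on MS, salt lowered both, and exa1 fell below every wild-type library (interaction -0.91 ± 0.07, adjusted p = 5.03e-27).

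IPMI1, an isopropylmalate isomerase subunit of methionine chain elongation, was at 60.3, 56.7 and 57.5 CPM in wild type and 51.6, 47.1 and 49.6 in exa1 on MS. In salt IPMI1 was at 14.7, 13.1 and 15.3 CPM in wild type and 4.69, 4.7 and 5.14 in exa1. Its exa1 level was lower in both conditions and by more in salt (interaction -1.34 ± 0.12, adjusted p = 6.47e-20). CYP83A1 (AT4G13770; chr4:7990429-7992429), a cytochrome P450 that oxidises aldoximes of the pathway, was at 125, 125 and 119.8 CPM in wild type and 103, 105 and 104 in exa1 on MS. With NaCl CYP83A1 was at 72.5, 69 and 68.2 CPM in wild type and 32.2, 33.3 and 33.6 in exa1. Here too neither pair overlapped and the gap widened (-0.83 ± 0.06, adjusted p = 1.16e-26). MAM1, the synthase that starts chain elongation, had -0.85 ± 0.06, with a salt response of -0.11 in wild type and -0.96 in exa1. At 23 °C none of the 16 genes passed the test in either direction, with a median of -0.08. In the fit of all 24 libraries 7 of the 16 were called lower.

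The CYP83A1 promoter is printed as an example from this pathway, the 250 bases before the annotated start at chr4:7992430-7992679, minus strand, in RefSeq TAIR10.1 with the same motifs in capitals.
CYP83A1: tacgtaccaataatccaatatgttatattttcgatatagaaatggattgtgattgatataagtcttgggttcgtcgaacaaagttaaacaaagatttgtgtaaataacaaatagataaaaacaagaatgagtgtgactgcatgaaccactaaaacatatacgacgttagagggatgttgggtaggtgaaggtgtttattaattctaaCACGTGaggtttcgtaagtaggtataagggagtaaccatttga
It held CACGTG, which is an ACGTG core on each strand, and neither of the other motifs. An ACGTG core stood in 8 of the 16 promoters of the list (50%), against 23.9% of all.

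Photosynthesis genes were lower in exa1 before salt and fell further behind in it. Of 17 light-harvesting genes 14 had a lower interaction and 2 a higher one, 13 of them in the class with a deficit in both conditions that was larger in NaCl, and the median went from -0.64 on MS to -0.76 with NaCl. LHCB3, a chlorophyll a/b-binding protein of the photosystem II antenna, was at 112, 114 and 108 CPM in wild type and 48.2, 47 and 49.3 in exa1 on MS. With NaCl LHCB3 was at 172, 178 and 166 CPM in wild type and 65.3, 64.4 and 60.5 in exa1. The genotypes were far apart in both conditions and the interaction was small, -0.23 ± 0.06 (SE; adjusted p = 0.000988). LHB1B2, another antenna gene, was at 440.1, 425 and 461 CPM in wild type and 219, 215 and 215 in exa1 on MS. In salt LHB1B2 was at 1133, 1164 and 1116 CPM in wild type and 392, 389 and 407 in exa1. It rose in both genotypes and less in exa1 (-0.50 ± 0.03, adjusted p = 5.25e-30), as did CAB2 (-0.72 ± 0.13). Antenna genes are close copies of each other and may share reads. LHCB2.3, at low levels, was an exception with a higher interaction (1.97 ± 0.40).

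All 12 called genes among 14 of the Calvin cycle, which fixes carbon dioxide, had a lower interaction, 11 of them with a deficit in both conditions that was larger in NaCl (medians -0.49 on MS and -0.82 with NaCl). HCEF1, the chloroplast fructose-1,6-bisphosphatase, was at 67.5, 66.5 and 69.9 CPM in wild type and 56.8, 60.5 and 60 in exa1 on MS. In salt HCEF1 was at 138, 133 and 134 CPM in wild type and 80.9, 77.3 and 76.1 in exa1. Wild type rose by a log2 of 0.99 and exa1 by 0.40 (interaction -0.59 ± 0.06, adjusted p = 3.06e-17). Phosphoribulokinase (PRK), the dehydrogenase subunit GAPB and the small Rubisco subunit RBCS1A had -0.41 ± 0.06, -0.40 ± 0.03 and -0.34 ± 0.02. GUN5, a magnesium chelatase subunit of chlorophyll synthesis, differed in NaCl only (-0.63 ± 0.03; interaction -0.63 ± 0.05). The summed leaf markers were lower in exa1 too, but that sum includes RBCS1A, LHCB3 and CAB3 of these same lists. The part of the tissue markers in these results was not tested. With all 24 libraries in 1 fit, 5 light-harvesting and 8 Calvin cycle genes were called lower, and LHCB3 (-0.25, adjusted p = 0.333), CAB2 (-0.74, adjusted p = 0.121) and LHCB2.3 (1.95, adjusted p = 0.179) were not called.

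Proline synthesis divided between its paralogues. P5CS1 and P5CS2 encode pyrroline-5-carboxylate synthase, which starts proline synthesis from glutamate, P5CS1 being the main stress-induced form. P5CS2 was at 83, 78.6 and 82.3 CPM in wild type and 85.8, 78.5 and 81.5 in exa1 on MS. With NaCl P5CS2 was at 209, 204 and 205 CPM in wild type and 316, 318 and 319 in exa1. P5CS1 was at 30.2, 25.5 and 26.9 CPM in wild type and 25.3, 27.3 and 28.1 in exa1 on MS, and at 389, 388 and 377 and 269, 273 and 267 CPM with NaCl. Both genes overlapped between genotypes on MS and separated in salt, P5CS2 upwards (0.61 ± 0.05, adjusted p = 6.19e-26) and P5CS1 downwards (-0.48 ± 0.06, adjusted p = 7.88e-12) in exa1. Of the 14 proline and compatible solute genes 5 were called higher and 2 lower, and the galactinol synthases GolS4 and GolS1 (0.77 ± 0.11 and 0.66 ± 0.10) went with the MS level.

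Genes of endoplasmic reticulum chaperones and of the unfolded protein response had a higher interaction for 12 of 19 and a lower one for none (medians -0.03 on MS and 0.16 with NaCl). BIP2, the main lumenal HSP70, was at 541, 534 and 524 CPM in wild type and 517, 516 and 529.6 in exa1 on MS. With NaCl BIP2 was at 204, 200.4 and 205 CPM in wild type and 271, 264 and 271 in exa1. The genotypes overlapped on MS, and in salt BIP2 fell less in exa1 (0.44 ± 0.04, adjusted p = 1.29e-23). Of 19 tested genes in a heat shock list, 11 were called higher and none lower (medians -0.30 and 0.02). Examples were HSP17.4 (1.26 ± 0.20), HSP17.6II (2.12 ± 0.32) and Hsp70-2 (0.73 ± 0.07). The list also held heat shock factors such as HSFA2 and HSFB1, as well as MBF1C and HSP21, and was not confined to cytosolic chaperones. In the fit of all 24 libraries 3 genes of the endoplasmic reticulum list and 4 of the heat shock list were called, without BIP2 (0.42, adjusted p = 0.0611).

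Cell division genes had 6 of 20 called lower and none higher, 5 of them in NaCl only (medians 0.02 on MS and -0.25 with NaCl). SYP111, the syntaxin KNOLLE of the forming cell plate, was at 23.7, 25 and 21.7 CPM in wild type and 24.5, 23.1 and 21.6 in exa1 on MS. In salt SYP111 was at 17, 18.8 and 17.3 CPM in wild type and 11.2, 11.8 and 12.6 in exa1, so that overlapping genotypes became separate (-0.55 ± 0.12, adjusted p = 0.000115). The list count was 3 without wild-type MS replicate 3, also 3 in DESeq2, and 1 in the fit of all 24 libraries. BUBR1, a spindle checkpoint protein, had -1.12 ± 0.28 and was named by the rule for NaCl-only genes.

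Other NaCl-only genes of large size included RGF9, a root meristem growth factor peptide, at 4.98, 6.65 and 5.46 CPM in wild type and 6.66, 6.07 and 7.36 in exa1 on MS. With NaCl RGF9 was at 9.46, 10.9 and 9.54 CPM in wild type and 4.48, 4.96 and 4.9 in exa1. It overlapped on MS, and in salt it rose in wild type and fell in exa1 (-1.29 ± 0.20, adjusted p = 2.89e-08). The cytochromes P450 CYP78A6 and CYP706A5 had -1.26 ± 0.28 and -1.24 ± 0.21, the monolignol glucosyltransferase UGT72E3 -1.59 ± 0.40, and the LOB-domain gene ASL15 1.74 ± 0.44. Several higher ones had few reads on MS or in salt. LTI65 (RD29B; 2.25 ± 0.69), an ABA target, lost its call without wild-type MS replicate 2 or exa1 MS replicate 3 (1.59 and 1.68, adjusted p = 0.222 and 0.0787). The clock gene CCA1 (1.69 ± 0.53) lost it without wild-type MS replicate 1 or exa1 MS replicate 2 (1.22 and 1.32, adjusted p = 0.183 and 0.0860). MLO15 (1.95 ± 0.59) lost it without wild-type NaCl replicate 1 (1.58, adjusted p = 0.0585), and ULT2 (1.65 ± 0.62) without any 1 of 6 libraries (0.947 to 1.68, adjusted p from 0.0517 to 0.487). In the fit of all 24 libraries, UGT72E3 (-1.61, adjusted p = 0.0786) also lost its call. The NaCl-only label of the higher genes rests on where the test passed. Log2 differences on MS and with NaCl were -1.47 and 0.78 for LTI65, -1.14 and 0.55 for CCA1, and -0.89 and 0.86 for ASL15. For MLO15 they were -0.08 and 1.87, and for ULT2 -0.41 and 1.24. The MS estimate was thus at least as large as the NaCl one for LTI65, CCA1 and ASL15, and ASL15 did not overlap on MS.

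Genes of opposite signs changed the order of the genotypes. NATA1, an N-acetyltransferase of polyamine and ornithine metabolism, was at 1.74, 2.13 and 1.5 CPM in wild type and 0.206, 0.427 and 0.288 in exa1 on MS. With NaCl NATA1 was at 24.7, 25.7 and 23.9 CPM in wild type and 54.1, 52.9 and 55.7 in exa1. No libraries overlapped in either condition, exa1 being lower on MS and higher in salt (3.65 ± 0.30, adjusted p = 7.86e-23), and at 23 °C NATA1 was lower as well (-2.12). The peroxidase PRX52 had 2.78 ± 0.40. In the other direction, FRU (FIT), the bHLH factor of iron uptake in roots, was at 13.2, 11.5 and 11.9 CPM in wild type and 16.5, 18.9 and 18.9 in exa1 on MS. In salt FRU was at 1.54, 1.5 and 2.34 CPM in wild type and 0.422, 1.58 and 0.945 in exa1, overlapping, with an interaction of -1.44 ± 0.29 (SE; adjusted p = 2.71e-05). The zinc finger repressor ZF1 had -1.55 ± 0.35, and the transporter UMAMIT4 -2.75 ± 0.84, whose call was lost without wild-type NaCl replicate 1 or exa1 NaCl replicate 1 (-2.34 and -2.20, adjusted p = 0.0870 and 0.0586). The clock genes PRR7 and GI also had opposite signs, with 0.70 ± 0.10 and 0.63 ± 0.09, in a list of 16 with 4 called higher and 3 lower.

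Transport of sodium and potassium had 5 of 20 genes called higher and 1 lower (30% called, against 21.2% of all genes). Several classical salt genes were not called. SOS1, the plasma membrane sodium/proton antiporter, had an interaction of -0.09 ± 0.11 (SE; adjusted p = 0.636), and the sodium transporter HKT1 0.11 ± 0.37 (SE; adjusted p = 0.89). DREB2A, the drought and heat factor, had -0.04 ± 0.09 (SE; adjusted p = 0.782) with salt responses of 3.83 in wild type and 3.78 in exa1. COR15A, a chloroplast stress protein, was higher in exa1 on MS (1.11 ± 0.08) and with NaCl (1.31 ± 0.03) and had 0.21 ± 0.09 (SE; adjusted p = 0.099), though it passed on log2(FPKM + 1) values (0.36). A p above the threshold does not show that their responses were alike. KAT1 and CBL1, a potassium channel of guard cells and a calcium sensor, had 0.53 ± 0.10 and 0.45 ± 0.10.

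Side by side, the lists fell into those whose median difference lay further from 0 on MS and those in which it did so in salt. The PR and effector, Aux/IAA, light and growth, NAC, zinc finger and heat shock lists had the more negative median on MS, and the aliphatic glucosinolate, Calvin cycle, light-harvesting and cell division lists had it with NaCl. Dark and sugar-starvation genes had 8 of 18 called higher and 1 lower, CBF and DREB2 factors 3 of 10 higher and 1 lower, ABA breakdown 2 of 4 higher (1 without exa1 MS replicate 1), and peroxide and superoxide genes 2 of 21 higher and 5 lower (3 lower without exa1 NaCl replicate 2). Nitrate and iron genes had 5 of 19 called higher and 4 lower, with 3 higher without wild-type MS replicate 3 or exa1 NaCl replicate 3. EXA1 and translation initiation genes, with 1 of 16 called higher and 2 lower, and flavonoid synthesis, with 1 of 12 called higher, had shares below the 21.2% of all genes. The 2 lower calls were EXA1 itself and the eIF2 kinase gene GCN2, and the higher one, EIF4A1, was lost without 1 library in 8 cases (adjusted p up to 0.374). Root markers had 6 of 21 called lower and none higher and leaf markers 5 of 15 lower and 2 higher.

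**Figure D5:**
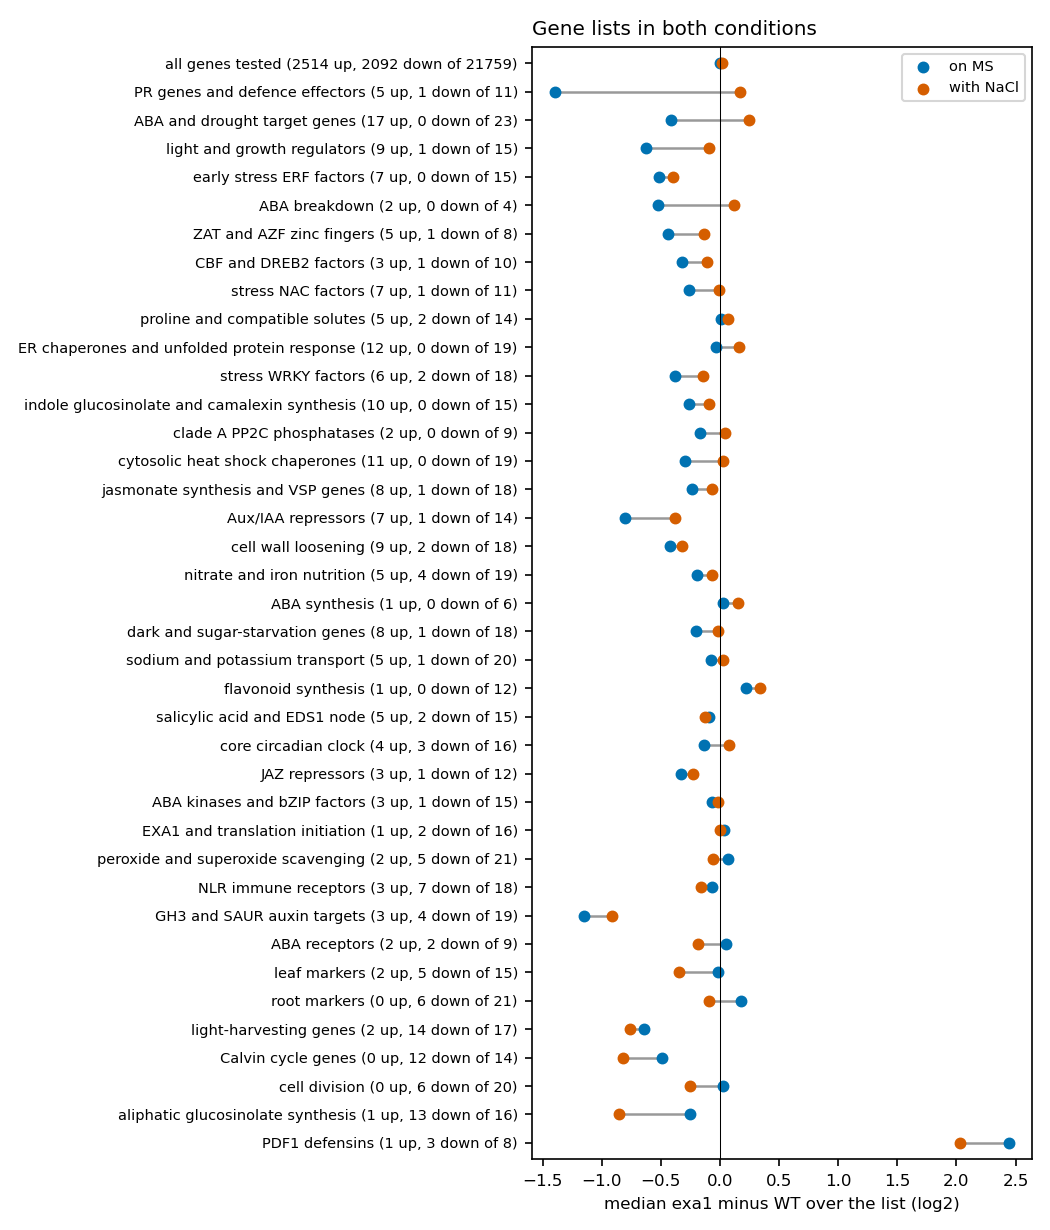
Median log2 difference between exa1 and wild type on MS and with NaCl for 38 gene lists and for all genes tested (0.00 and 0.02). The distance between the 2 symbols of a row shows the shift with salt, to the right for ABA and drought targets (-0.42 to 0.25) and to the left for aliphatic glucosinolate synthesis (-0.25 to -0.86).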

How the data were processed

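Per the file headers, the deposited tables held read counts and FPKM per gene for the 24 libraries, and the 12 salt-set libraries and the 6 at 23 °C were used. TAIR10, HISAT2 2.0.4 and HTSeq 0.6.1p1 are listed in the submitters' processing notes, and the labels' protocols describe strand-specific paired libraries, while the strand setting of the counting is not given in the sources used here. The authors' counts, deposited without normalization, were tested with edgeR 4.0.16 in R 4.3.3 (TMM, filterByExpr, robust quasi-likelihood fit, 1 mean per group, 8 residual degrees of freedom), with Benjamini-Hochberg adjustment within each comparison at 0.05. The heat set was fitted separately. Standard errors are the absolute log2 change over the square root of F and are approximate. The authors' deposited FPKM values served 1 alternative, limma 3.58.1 on log2(FPKM + 1). Further alternatives left out each library in turn or the organelle genes, kept genes of low counts, scaled by RLE size factors, put replicate number in as a block, fitted all 24 libraries together, or used DESeq2 1.42.0. Folds against a group without reads use a floor of 3 counts over the group, which covers counting error only.

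Classes follow the calls on MS and with NaCl. Genes were named as the 5 largest interactions in each direction of the MS-only and NaCl-only classes and 3 of the opposite-sign class (with a symbol and at least 5 CPM in a group; for the first 2 classes, no overlap in the condition that defines the class), up to 4 members per list, and 14 salt markers. In 38 hand-written lists, 581 of 589 members matched a locus and 568 were tested. The samples, lists, families, motifs, promoters shown and genes plotted were chosen with earlier results of these data known. The labels call the replicates independent without saying how cultures were kept apart, so p-values cover the spread between libraries, which may be technical. No pair of libraries of a group agreed within sampling noise (chi-square per gene 1.68 to 2.19). Promoters and gene positions come from RefSeq TAIR10.1. The test was checked on simulated counts.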

Additional observations from a re-analysis of the deposited data

Results flagged for a closer look

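A difference between genotypes in the response to NaCl, by the test of the difference itself, marked 4606 genes. Given here are 26 of the MS-only, NaCl-only and opposite-sign classes, the largest among genes that met the naming rule. That rule required a symbol, which 9172 of the 21759 tested genes had. Values are on the log2 scale, as NaCl response in exa1 minus that in wild type. Among genes whose genotypes differed on MS only, the values were 5.96 for FLP1, 5.26 for LTP4, 3.74 for GSTU3, 2.29 for MYB47 and 2.25 for DIN2, and -1.89 for GLIP2, -1.44 for NLM1, -1.26 for CGA1, -1.07 for FUT6 and -1.07 for PDC3. The fitted values of FLP1 and LTP4 rest on exa1 MS libraries without reads and are no bounds. Among genes that differed in NaCl only, the values were 2.25 for LTI65, 1.95 for MLO15, 1.74 for ASL15, 1.69 for CCA1 and 1.65 for ULT2, and -1.59 for UGT72E3, -1.29 for RGF9, -1.26 for CYP78A6, -1.24 for CYP706A5 and -1.12 for BUBR1. Among genes of opposite signs, the values were 3.65 for NATA1, 2.78 for PRX52, 2.62 for NCED3, -2.75 for UMAMIT4, -1.55 for ZF1 and -1.44 for FRU. Groups of 3 libraries were too small for a search for outlying samples.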

How the results depend on the processing

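Against 4606 interactions, DESeq2 gave 3869, no filter on low counts 4447, RLE size factors 4596, log2(FPKM + 1) values 4030 and leaving out organelle genes 4599, while leaving out 1 library at a time gave 4114 to 4343. Same-numbered libraries did not deviate together (18 correlations from -0.042 to 0.035), and the fit with replicate number as a block gave 4525 interactions, 4514 of them shared with the fit without it. With all 24 libraries in 1 fit, 1612 interactions were called, 1608 of them shared with the same sign (34.9% of the 4606), and there were 2760 differences on MS, 4052 with NaCl, 3924 at 23 °C, 490 genes in the MS-only class, 754 in the NaCl-only class and 140 of opposite signs. The share of calls higher in exa1 went from 45.3% to 34.3% on MS and from 52.0% to 38.6% with NaCl in that fit. The cause was not tested, and the spread was 9.64% in the heat set and 3.09% in the salt set. At 23 °C, leaving out 1 library gave 759 to 2217 calls against 1598. Of 165 named genes under 19 settings, 2898 values kept direction and call, 233 lost the call, 1 gained it and 3 changed sign, all of HKT1, which was not called and ran from -0.0481 to 0.340 when 1 library was left out (-0.0130 without wild-type MS replicate 2 and -0.0235 without exa1 NaCl replicate 2). Genes with few reads on MS limit how well classes can be told apart.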

Other observations

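Gene families taken from the annotation were chosen after values were seen, and several share members with lists described above (light-harvesting, NAC, ERF, NLR and ABA target genes). Of 69 lipid transfer proteins, small secreted proteins that carry cuticle lipids and serve defence, 33 had a higher interaction and 7 a lower one, with median genotype differences of -0.02 on MS and 0.24 with NaCl. Late embryogenesis abundant proteins and dehydrins had 21 of 72 higher and 1 lower (medians -0.22 on MS and 0.13 with NaCl). Chlorophyll a/b-binding and photosystem proteins had 54 of 66 lower and 2 higher (medians -0.32 and -0.59), whereas of 58 plastid-encoded genes 1 was called, lower. Of 19 mitochondrion-encoded genes 4 were called higher and none lower, and the share called, 21.1%, was close to the 21.2% of all genes.

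Ribosomal proteins had 60 of 304 higher and 27 lower, 57 of the called genes in NaCl only, and at 23 °C 73 of 301 were higher in exa1 and 1 lower. AP2/ERF proteins had 25 of 115 higher and 7 lower, NAC proteins 16 of 75 and 2, and MYB proteins 18 of 97 and 6 (27.8%, 24% and 24.7% called). TIR-NBS-LRR and NB-ARC immune receptor genes had 21 of 111 lower and 6 higher. Pentatricopeptide repeat proteins, which process organelle transcripts, had 21 of 283 lower and 8 higher, a share called (10.2%) below that of all genes. Over all genes tested, 2514 of 21759 were higher (11.6%) and 2092 lower (9.61%), or 21.2% called.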
